A study of Mus musculus with 6 samples.

Results

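The 9 genes described here are receptors and ligands of the tumor necrosis factor (TNF) superfamily that activated T cells carry, namely Tnfrsf4, Tnfrsf8, Tnfrsf9, Tnfrsf18, Tnfrsf1a, Tnfrsf1b and Fas (7 receptors) and Tnfsf8 and Tnfsf11 (2 ligands). They were chosen by name from the 23420 genes of the expression table, with no threshold on their values but with earlier results of these data known. All 9 were among the 10607 genes with enough counts to be tested.

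RNAseq was performed on polyadenylated RNA from 6 libraries of primary mouse T cells. Splenic CD4+CD62L+ cells, the naive helper T cell fraction, were isolated with magnetic beads from Balb/c mice aged 12 weeks and stimulated on plate-bound antibodies to CD3 and CD28. After 24 h all cultures received lentivirus encoding an shRNA, and 24 h later they were fed with medium that the labels describe as containing IL-2. Harvest followed 48 h after feeding. The 3 groups of 2 libraries each were control (scrambled shRNA), harmine (the same scrambled shRNA with 3.7 µM harmine, an inhibitor of the kinase DYRK1A) and Dyrk1a shRNA. No group was untransduced, and no source used here says which of the study's Dyrk1a hairpins these libraries received. Nothing in the labels says that the 2 libraries of a group came from separate mice or cultures, so p-values measure only the spread between these libraries, which may be technical. According to the paper, harmine has several targets, among them monoamine oxidase A, CDC-like kinases and DYRKs. The design compares harmine with control, the shRNA labelled Dyrk1a with control, and the 2 treatments with each other. The first 2 comparisons share the control libraries, and the third is built from the same treated libraries.

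TNF receptors are activated when they are clustered by trimeric ligands, and they fall into those that bind TRAF adaptors and drive NF-kB and survival signaling, and those with a cytoplasmic death domain. OX40 (Tnfrsf4), GITR (Tnfrsf18), 4-1BB (Tnfrsf9) and CD30 (Tnfrsf8) are costimulatory receptors of the first kind that T cells display after antigen receptor stimulation, and regulatory T cells are known for high OX40, GITR and TNFR2 (Tnfrsf1b). Fas and TNFR1 (Tnfrsf1a) carry death domains. CD30 ligand (Tnfsf8) and RANKL (Tnfsf11) are ligands that activated helper T cells make themselves.

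The libraries held 1096345 to 3747648 counts, the 2 control libraries being the shallowest. Dyrk1a, the shRNA target, stood at 58.4 and 82.7 CPM in control (counts scaled by TMM to a common library total of 1000000), 74.8 and 77.6 with harmine and 60.2 and 61.9 in the libraries labelled Dyrk1a shRNA. Its level in those libraries lay between the 2 control values (log2 fold change −0.20, SE 0.21, adjusted p = 0.835 by edgeR's quasi-likelihood test). A transcript level below control was thus not detected, and the labels of that group were not checked by their target. Against harmine the Dyrk1a log2 fold change was −0.32 (SE 0.20, adjusted p = 0.88 by the same test). Those groups did not overlap, as for 41% of all tested genes. Directions given for the Dyrk1a shRNA group rest on its label. The summed level of 8 CD4 T cell markers was 2800 to 2830 CPM in control, 2790 to 2920 with harmine and 2620 to 2690 with Dyrk1a shRNA. Markers of other cells summed to far less, at 23.8 to 38.0 CPM for 8 B cell markers, 16.8 to 33.9 CPM for 8 myeloid markers, 54.0 to 115 CPM for 9 CD8 T and NK cell markers and 11.1 to 32.0 CPM for 5 erythroid and platelet markers, and no marker was at 0 in all libraries. B cell markers stood at 23.8 to 25.6 CPM with harmine, below 30.8 to 38.0 in control and 29.9 to 36.3 with Dyrk1a shRNA. Erythroid and platelet markers stood at 17.7 to 32.0 CPM in control, above 11.1 to 11.6 with harmine and 12.6 to 16.2 with Dyrk1a shRNA. The part of these marker differences in the results was not tested. Foxp3, the defining factor of regulatory T cells, had only 2 to 12 counts per library. The 7 Treg-associated markers in the table, Foxp3 among them, summed to much more. Their summed level was 1710 to 2170 CPM in control, 1730 to 2310 with harmine and 1640 to 1830 with Dyrk1a shRNA. The part of each gene in that sum is not given here. In these bulk samples a change in the number of cells that carry a receptor and a change in its RNA per cell cannot be told apart.

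To set the 9 genes beside each other, CPM values were divided by the length of the merged exons (CPM per kb). Tnfrsf4 stood at 308 ± 50.2 CPM per kb over all libraries (SD, n = 6), Tnfrsf18 at 249 ± 36.2 and Tnfrsf9 at 164 ± 13.9. These 3 costimulatory receptors stood apart from the rest, as the lowest Tnfrsf9 value of 143 lay far above the highest Fas value of 24.9. Below them came Fas at 19.9 ± 4.02, Tnfrsf1b at 16.5 ± 3.52, Tnfrsf1a at 13 ± 3.02, Tnfrsf8 at 8.40 ± 3.00, Tnfsf8 at 7.80 ± 2.04 and Tnfsf11 at 5.80 ± 0.99 CPM per kb. Tnfrsf4 and Tnfrsf18 overlapped in their ranges over the libraries, Tnfrsf18 and Tnfrsf9 did not, and from Fas downward each gene overlapped with the next in the order. The order was the same when the longest transcript replaced the merged exons.

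In counts, Tnfrsf9 supplied 28.1% to 33.5% of all reads assigned to the 9 genes in a library, Tnfrsf4 26.3% to 31.4% and Tnfrsf18 23.5% to 28.3%. No other gene of the group exceeded 6.33%, which Tnfrsf1b reached in 1 library. Tnfrsf8 varied most over the 6 libraries, its highest CPM being 2.64 times its lowest, and Tnfrsf9 varied least, with a ratio of 1.24.

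**Figure D1:**
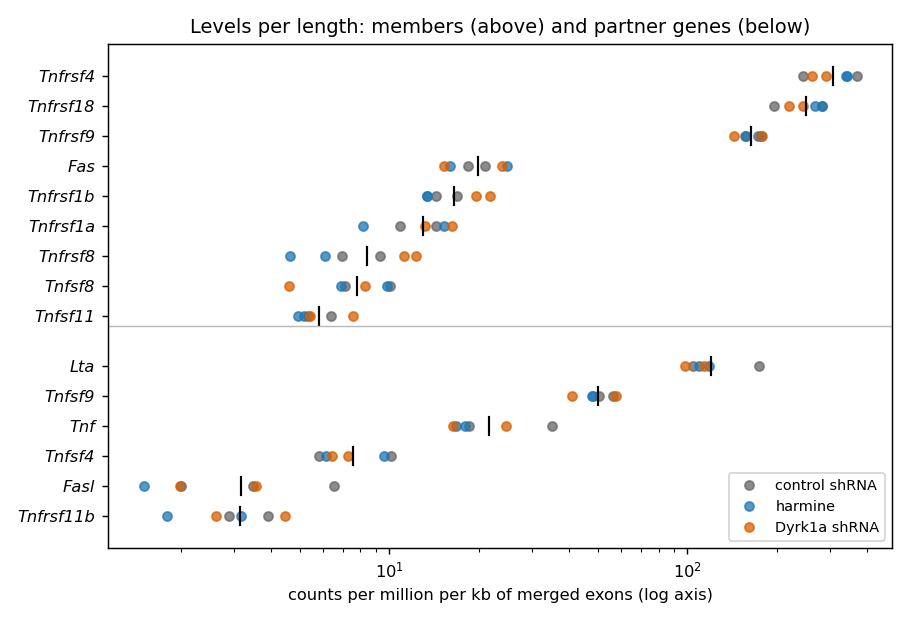
Level of each of the 9 genes (above the line) and of 6 partner ligands or receptors (below it), in CPM per kb of merged exons on a log axis, with 1 point per library colored by group and a black bar at the mean of the 6 libraries. Tnfrsf4, Tnfrsf18 and Tnfrsf9 lie at 143 or above in every library, whereas the other 6 genes lie at 24.9 or below.

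No difference passed for the most abundant costimulatory receptors, OX40, GITR and 4-1BB. Tnfrsf4 was measured at 505 and 333 CPM in control, 463 and 469 with harmine and 398 and 358 with Dyrk1a shRNA. Tnfrsf18 was measured at 432 and 297 CPM in control, 408 and 431 with harmine and 371 and 334 with Dyrk1a shRNA. For both genes the 2 control libraries were the highest and the lowest of the 6 (505 and 333 for Tnfrsf4, 432 and 297 for Tnfrsf18), so that each treated group lay within the control range, while the 2 treated groups did not overlap with each other. The log2 fold change of Tnfrsf4 was 0.15 with harmine (SE 0.22, adjusted p = 0.96 by edgeR), −0.15 with Dyrk1a shRNA (SE 0.22, adjusted p = 0.898) and −0.30 for Dyrk1a shRNA against harmine (SE 0.22, 95% interval −0.76 to 0.15, adjusted p = 0.896). That of Tnfrsf18 was 0.20, −0.05 and −0.25 in the same order, the last with a 95% interval of −0.69 to 0.19 and an adjusted p of 0.896. None of these passed the threshold of 0.05, and the signs against control turned when a single control library was left out (Tnfrsf4 at −0.12 with harmine without control replicate 2, and at 0.18 with Dyrk1a shRNA without control replicate 1).

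Tnfrsf4 and Tnfrsf18 are neighbors on mouse chromosome 4. In GENCODE's annotation of GRCm38, Tnfrsf4 lies at 156013843 to 156016612 and Tnfrsf18 at 156026164 to 156028895, both on the plus strand and 9551 bp apart with no coding gene between them. Their levels moved in parallel from library to library. Of the counts assigned to this pair, Tnfrsf4 took 53.9% and 52.8% in control, 53.2% and 52.1% with harmine and 51.8% in each Dyrk1a shRNA library. The 95% Wilson intervals of these shares, which cover counting error only, all overlapped, the widest being 49.2% to 56.4% and the narrowest 50.5% to 53.8%. An antisense transcript, Gm16008, overlaps Tnfrsf18 and was not used here. The libraries do not mark strand, so its reads could not be told from those of Tnfrsf18.

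The root mean square difference of their log2 CPM, after each gene was centered on its own mean, was 0.04. That was the smallest value among the 36 pairs of these genes. Both genes have high counts, 352 to 1778 per library, and counting noise adds less to this measure at high counts. The largest difference within either profile was that between the control libraries (0.28 and −0.32 for Tnfrsf4, 0.20 and −0.34 for Tnfrsf18). Among all tested genes, Naaa, a lysosomal amidase, was nearest to Tnfrsf4 at 0.04 and Nmd3, a ribosome export adaptor, was nearest to Tnfrsf18 at 0.03. In this ranking of 10606 genes, Tnfrsf18 was the 4th nearest to Tnfrsf4 and Tnfrsf4 the 2nd nearest to Tnfrsf18, as described over 6 libraries only.

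The promoters of this pair are shown because the genes lie side by side and had similar profiles over the libraries. Their longest transcripts are also alike in length (1090 and 1189 bp) and GC content (54.9% and 55.7%). The part of position, length or GC content in the similar profiles was not tested. Each window runs from 250 bases before to 50 bases after the transcript start given by RefSeq for GRCm38.p6, written 5′ to 3′ along the gene's strand. Capitals would mark a match to the AP-1 site TGANTCA, on either strand, or to the NF-kB consensus, along the gene's strand only. Neither window holds one.
Tnfrsf4, chr4:156013445-156013744, plus strand: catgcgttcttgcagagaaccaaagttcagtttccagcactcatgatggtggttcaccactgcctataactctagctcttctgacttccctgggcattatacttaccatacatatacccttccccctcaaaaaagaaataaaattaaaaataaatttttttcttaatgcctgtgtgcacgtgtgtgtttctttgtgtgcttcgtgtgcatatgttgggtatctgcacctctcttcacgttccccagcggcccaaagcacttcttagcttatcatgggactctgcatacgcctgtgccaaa
Tnfrsf18, chr4:156026072-156026371, plus strand: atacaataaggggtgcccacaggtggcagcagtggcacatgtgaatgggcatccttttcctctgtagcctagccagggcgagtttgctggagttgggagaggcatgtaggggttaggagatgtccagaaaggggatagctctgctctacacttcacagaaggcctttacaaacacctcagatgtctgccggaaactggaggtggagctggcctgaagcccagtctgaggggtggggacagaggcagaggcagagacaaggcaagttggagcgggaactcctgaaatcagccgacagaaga

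The shorter NFAT core GGAAA was also searched on both strands and was found once in the Tnfrsf4 window and at 2 places in the Tnfrsf18 window. It occurs in 61.3% of all 32851 promoter windows of this length, against 7.81% for AP-1 and 5.89% for the NF-kB consensus along the gene's strand. The Tnfrsf4 window ends before the gene start that GENCODE gives.

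**Figure D2:**
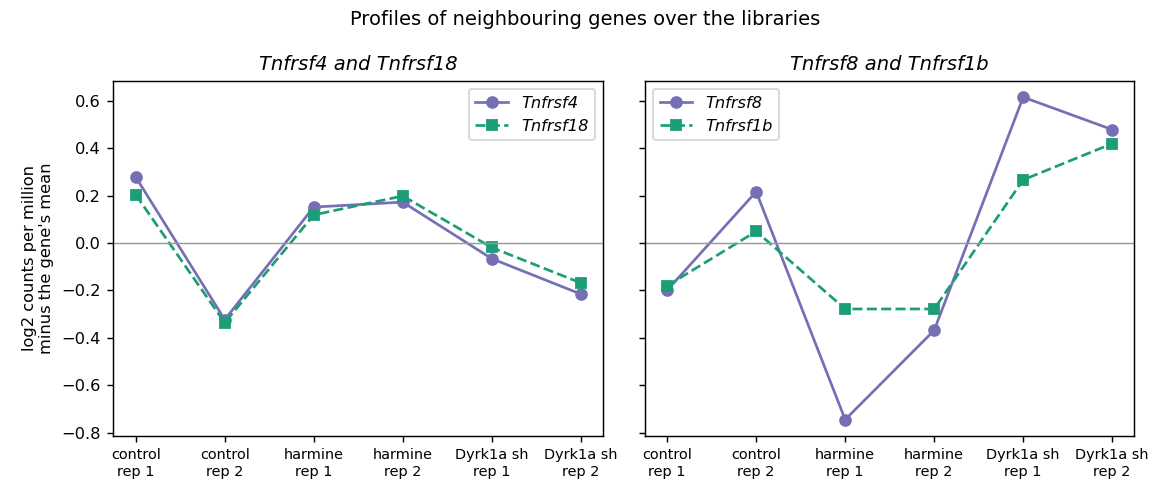
Log2 CPM of neighboring genes in each of the 6 libraries, after subtraction of each gene's mean over the libraries, for Tnfrsf4 with Tnfrsf18 (left) and Tnfrsf8 with Tnfrsf1b (right). The first pair nearly coincides in every library (root mean square difference 0.04), and the second pair shares an order of groups, lowest with harmine and highest with Dyrk1a shRNA, with a wider swing for Tnfrsf8.

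4-1BB, the third abundant costimulatory receptor, was the steadiest of the 9. Tnfrsf9 was measured at 471 and 424 CPM in control, 481 and 427 with harmine and 484 and 391 with Dyrk1a shRNA. All groups overlapped and their means of 447 ± 33.3, 454 ± 38.1 and 437 ± 66.0 CPM (SD, n = 2 each) differed by less than the spread within any group. The log2 fold changes were 0.02 with harmine (95% interval −0.41 to 0.45), −0.03 with Dyrk1a shRNA (−0.46 to 0.40) and −0.06 between the treatments (−0.48 to 0.37). Differences within these unadjusted bounds are not excluded with 2 libraries per group. Tnfrsf9 lies on chromosome 4 at 150914562 to 150946102 and is overlapped on the opposite strand by Camta1, which had at most 80 counts in a library.

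CD30 and TNFR2 were the receptors with the widest separation between the treated groups. Tnfrsf8, the gene of CD30, was measured at 23.9 and 32.1 CPM in control, 16.1 and 21.1 with harmine and 42.5 and 38.6 with Dyrk1a shRNA. Tnfrsf1b, the gene of TNFR2, was measured at 54.6 and 64.2 CPM in control, 51.0 and 51.0 with harmine and 74.7 and 83.1 with Dyrk1a shRNA. For each of these genes both harmine libraries lay below both control libraries, and both libraries labelled Dyrk1a shRNA lay above all the others. The share of all tested genes with 3 groups in such an order was not counted. For single pairs of groups, 32.3%, 35.4% and 41% of all tested genes did not overlap. Tnfrsf8 rests on few reads, 38 in each control library and 54 to 131 in the treated libraries, and Tnfrsf1b on 76 to 282.

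The group means for Tnfrsf8 were 28.0 ± 5.81 CPM in control, 18.6 ± 3.56 with harmine and 40.6 ± 2.77 with Dyrk1a shRNA (SD, n = 2 each). The log2 fold change between the treatments, Dyrk1a shRNA against harmine, was 1.11 (SE 0.23, 95% interval 0.63 to 1.6), a 2.16-fold difference. Its unadjusted p of 0.000179 by edgeR's quasi-likelihood test was the 3rd smallest of 10607 genes, yet after adjustment over all genes it was 0.514 and the difference did not pass. DESeq2 gave an unadjusted p of 0.000734 and an adjusted p of 1. Without the filter on low counts, edgeR's adjusted p for Tnfrsf8 was 0.00634 at the same log2 fold change of 1.11. Over all 15 other settings its adjusted p ranged from 0.00634 to 1 and its log2 fold change from 0.94 to 1.33.

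Against control the treatments lay on opposite sides, with a Tnfrsf8 log2 fold change of −0.56 with harmine (SE 0.27, unadjusted p = 0.0504, adjusted p = 0.928 by edgeR) and 0.55 with Dyrk1a shRNA (SE 0.25, unadjusted p = 0.0428, adjusted p = 0.627). Neither passed after adjustment, and their sizes depended on the control libraries, at −0.79 and 0.33 without control replicate 1 and −0.35 and 0.77 without control replicate 2. With length and GC trends removed the latter was 0.36. In the order harmine, control, Dyrk1a shRNA no groups overlapped, but no step of that order passed the adjusted test.

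For Tnfrsf1b the group means were 59.4 ± 6.75 CPM in control, 51.0 ± 0.006 with harmine and 78.9 ± 5.95 with Dyrk1a shRNA (SD, n = 2 each). The log2 fold change of Dyrk1a shRNA against harmine was 0.63 (SE 0.19, 95% interval 0.24 to 1.03), a 1.55-fold difference that ranked 56th by p (unadjusted p = 0.00358, adjusted p = 0.678 by edgeR, unadjusted p = 0.0143 by DESeq2). It was −0.21 with harmine (SE 0.20, adjusted p = 0.944) and 0.42 with Dyrk1a shRNA (SE 0.20, unadjusted p = 0.0511, adjusted p = 0.645) against control. For Tnfrsf1b the first was −0.34 or −0.10 when control replicate 1 or 2 was left out, and the second was 0.24 with length and GC trends removed. No comparison passed for Tnfrsf1b under any of the settings tried.

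Tnfrsf8 and Tnfrsf1b are direct neighbors too. Tnfrsf1b lies on chromosome 4 at 145213463 to 145246870 and Tnfrsf8 at 145267137 to 145315164, both on the minus strand, with 20266 bp and no annotated gene between them. Of the counts assigned to this pair, Tnfrsf8 took 30.4% and 33.3% in control, 24.0% and 29.3% with harmine and 36.3% and 31.7% with Dyrk1a shRNA. These shares overlapped between the control and Dyrk1a shRNA libraries and were lower in both harmine libraries, the nearest values being 29.3% and 30.4%. The 95% Wilson intervals were 18.9% to 30% and 24.2% to 35% with harmine. Both overlapped those of control, 23% to 38.9% and 25.3% to 42.4%. The first did not reach the 31.1% to 41.8% of Dyrk1a shRNA replicate 1. The root mean square difference of their centered log2 CPM was 0.25, the 8th smallest of the 36 pairs. Tnfrsf1b was the nearest of the other 8 genes to Tnfrsf8, ranking 42nd among all genes, whereas the nearest of the group to Tnfrsf1b was Tnfsf11 at 0.23. Over all tested genes, Prex1, a Rac exchange factor, was nearest to Tnfrsf8 at 0.15.

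The promoters of this pair are printed because they are the 2 genes whose groups stood in the same order without overlap. Capitals mark matches to AP-1 (TGANTCA) or the NF-kB consensus, and the windows, strands searched and build are as above.
Tnfrsf8, chr4:145315115-145315414, minus strand: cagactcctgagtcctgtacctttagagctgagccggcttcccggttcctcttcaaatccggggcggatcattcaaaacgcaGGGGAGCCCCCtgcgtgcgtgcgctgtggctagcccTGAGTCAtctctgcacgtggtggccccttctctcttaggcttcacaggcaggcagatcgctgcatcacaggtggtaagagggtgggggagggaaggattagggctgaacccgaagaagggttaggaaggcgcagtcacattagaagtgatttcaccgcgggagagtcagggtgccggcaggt
Tnfrsf1b, chr4:145246821-145247120, minus strand: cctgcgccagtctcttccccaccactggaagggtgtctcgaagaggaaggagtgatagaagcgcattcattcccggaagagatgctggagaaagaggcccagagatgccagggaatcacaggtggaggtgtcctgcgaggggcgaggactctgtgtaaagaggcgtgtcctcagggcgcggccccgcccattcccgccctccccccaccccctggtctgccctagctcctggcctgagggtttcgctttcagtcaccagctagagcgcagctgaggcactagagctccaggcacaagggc

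The Tnfrsf8 window holds 1 AP-1 match and 2 NF-kB matches that overlap each other by all but 1 base, the first run of capitals being NF-kB and the second AP-1. The Tnfrsf1b window holds neither. Over the 10 windows that RefSeq gives for the 9 genes (Tnfrsf9 has 2), AP-1 was found in 3 (Tnfrsf8, Fas and the second window of Tnfrsf9). The NF-kB consensus, searched along the gene's strand only, was found in 2 (Tnfrsf8 and the same window of Tnfrsf9). The NFAT core was found in 7, and 1 of its matches in the second Tnfrsf9 window lay inside an NF-kB match. Over all promoter windows the shares were 7.81%, 5.89% and 61.3% for AP-1, NF-kB and the NFAT core, and enrichment was not tested. A match is a description of these letters and was set against no measurement of binding.

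TNFR1 is the death domain receptor that shares its ligands with TNFR2, and its group means of 30.4 CPM with harmine, 32.7 in control and 38.2 with Dyrk1a shRNA stood in the same order, but with overlap. Tnfrsf1a was measured at 28.2 and 37.1 CPM in control, 21.2 and 39.6 with harmine and 42.1 and 34.2 with Dyrk1a shRNA. One harmine library was the lowest of the 6 and the other exceeded both controls, and all groups overlapped. The log2 fold changes were −0.08 with harmine (SE 0.30), 0.23 with Dyrk1a shRNA (SE 0.30) and 0.31 between the treatments (SE 0.27, 95% interval −0.26 to 0.88, adjusted p = 0.913 by edgeR). Of the counts of both TNF receptors, Tnfrsf1b took 65.9% and 63.3% in control, 70.7% and 56.3% with harmine and 63.9% and 70.9% with Dyrk1a shRNA. The group means of this share, 64.6 ± 1.82%, 63.5 ± 10.2% and 67.4 ± 4.89% (SD, n = 2 each), differed by less than the spread between the harmine libraries. With 2 libraries against 2 no rank or permutation test of such a share could pass, so none was made. The nearest profile to Tnfrsf1a was that of Slc24a6, a cation exchanger, at 0.09.

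Fas, the receptor through which Fas ligand triggers apoptosis, was measured at 43.3 and 38.0 CPM in control, 51.3 and 33.0 with harmine and 49.4 and 31.5 with Dyrk1a shRNA. Both treated groups spanned the control values, and the difference within each treated group was larger than any between groups. The log2 fold changes were 0.04 (SE 0.28), −0.03 (SE 0.28) and −0.07 (SE 0.25) in the order harmine against control, Dyrk1a shRNA against control and Dyrk1a shRNA against harmine. The gene lies on chromosome 19 at 34290666 to 34327772 on the plus strand, and Blvrb, a biliverdin reductase, had the nearest profile at 0.05.

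**Figure D3:**
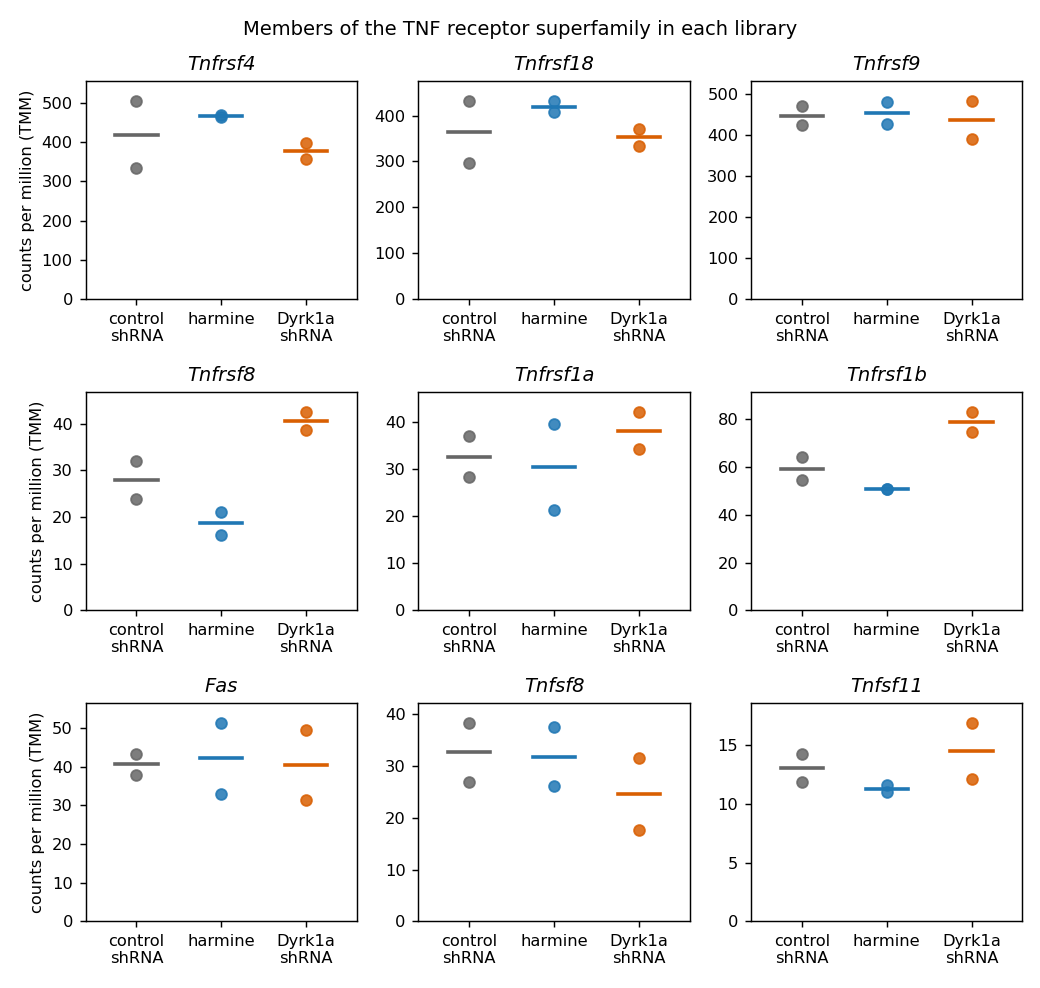
CPM (TMM-scaled counts) of the 9 genes in the 6 libraries, with 1 panel per gene, points for libraries, a bar at the mean of each group of 2 and axes that start at 0. Tnfrsf8 and Tnfrsf1b are lowest with harmine and highest with Dyrk1a shRNA with no overlap between groups, while Tnfrsf9 and Fas overlap in all 3 groups.

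The 2 ligands had the lowest means of the 9 per length over all libraries, though Tnfrsf8 lay below Tnfsf8 in control (8.08 against 8.58 CPM per kb) and with harmine (5.38 against 8.37), and no difference in either ligand passed. Tnfsf8, which encodes CD30 ligand, was measured at 38.3 and 27.0 CPM in control, 26.2 and 37.5 with harmine and 17.6 and 31.5 with Dyrk1a shRNA. All groups overlapped, and the lowest value was that of 1 Dyrk1a shRNA library. The log2 fold change was −0.05 with harmine (SE 0.30), −0.41 with Dyrk1a shRNA (SE 0.31, adjusted p = 0.756 by edgeR) and −0.36 between the treatments (SE 0.28, 95% interval −0.95 to 0.24, adjusted p = 0.896). Leaving out a single Dyrk1a shRNA library moved the Tnfsf8 values with this shRNA to −0.07 or −0.91 against control and to −0.02 or −0.86 against harmine. Receptor and ligand of the CD30 pair could also be read as a share of their joint counts, which needs no scaling between libraries. Tnfrsf8 took 38.4% and 54.3% of these counts in control, 38.0% and 36.0% with harmine and 70.7% and 55.0% with Dyrk1a shRNA. Both Dyrk1a shRNA libraries lay above all the others, the lower of them with a Wilson interval of 48.7% to 61.2% that overlapped the 42.7% to 65.4% of control replicate 2. Atp6v1g2, a subunit of the vacuolar proton pump, had the profile nearest to Tnfsf8 at 0.07.

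Tnfsf11, which encodes RANKL, was measured at 11.9 and 14.3 CPM in control, 11 and 11.6 with harmine and 16.9 and 12.1 with Dyrk1a shRNA. The harmine libraries were the lowest of the 6 without overlap, but the differences amount to few reads, as the gene had 17 to 44 counts per library. The log2 fold change was −0.20 with harmine (SE 0.34), 0.14 with Dyrk1a shRNA (SE 0.34) and 0.34 between the treatments (SE 0.30, 95% interval −0.29 to 0.96). With single libraries left out, the Tnfsf11 value with harmine ran from −0.35 to −0.07 and that between the treatments from 0.09 to 0.57. Ppm1j, a protein phosphatase, had the nearest profile at 0.05.

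None of the 9 genes passed the adjusted threshold of 0.05 in any comparison by edgeR's quasi-likelihood test, and DESeq2 called none either. With harmine against control, 0.00943% of all tested genes passed. No member had an unadjusted p under 0.05 by either tool, where 5.3% of all genes did by edgeR. Of the 9, 3 did not overlap between these groups (Tnfrsf8, Tnfrsf1b and Tnfsf11, all lower), which is 3 of 9 beside 32.3% of all genes. The median log2 fold change of the 9 was −0.05, against −0.02 over all tested genes, with 4 above 0 and 5 below.

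With Dyrk1a shRNA against control, 0.0189% of all genes passed after adjustment. At an unadjusted p under 0.05, 1 of the 9 was counted by edgeR (Tnfrsf8, higher) and 0 by DESeq2, beside 7.69% of all genes by edgeR. Without overlap there were 2 (Tnfrsf8 and Tnfrsf1b, both higher), beside 35.4% of all genes. The median was −0.03, against −0.01 over all genes.

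With Dyrk1a shRNA against harmine, 0.00943% of all genes passed after adjustment. At an unadjusted p under 0.05, both tools counted 2 of the 9 (Tnfrsf8 and Tnfrsf1b, both higher), beside 5.73% of all genes by edgeR. Of the 9, 5 did not overlap (Tnfrsf8, Tnfrsf1b and Tnfsf11 higher, Tnfrsf4 and Tnfrsf18 lower), beside 41% of all genes. The median was −0.06, against −0.00107 over all genes. When trends with gene length and GC content were removed, the medians of the 9 were −0.10, 0.11 and 0.14 in the 3 comparisons, so that the sign turned in those with Dyrk1a shRNA. Counts without overlap thus stood to either side of the shares for all genes and are given as a description only.

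**Figure D4:**
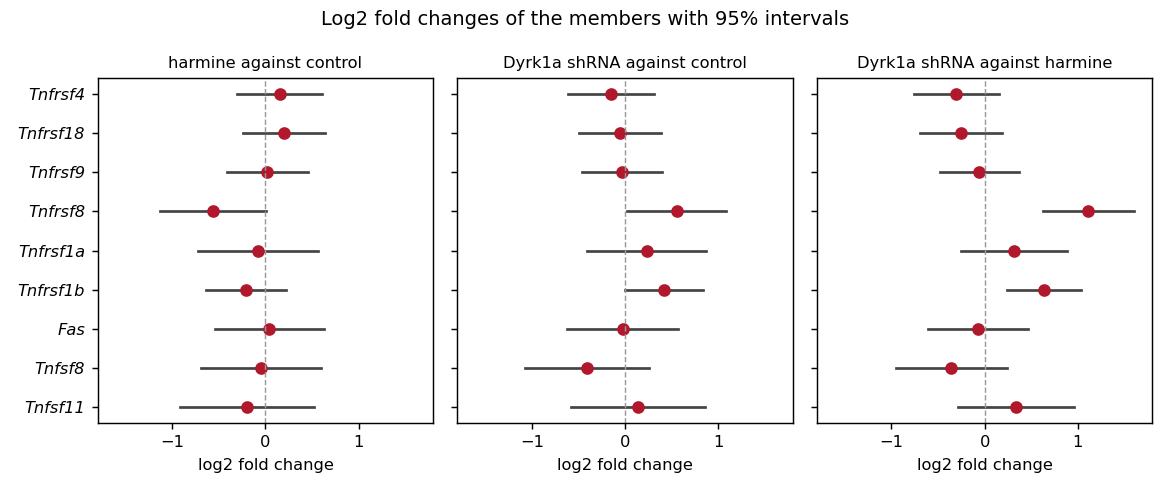
Log2 fold change of the 9 genes (points) with 95% intervals (lines) from edgeR's fit of all 6 libraries, for harmine against control, Dyrk1a shRNA against control and Dyrk1a shRNA against harmine, with a dashed line at 0. Between the treatments the unadjusted intervals of Tnfrsf8 (0.63 to 1.6) and Tnfrsf1b (0.24 to 1.03) lie above 0, and no gene passes after adjustment over all genes.

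The 95% intervals reached 0.43 to 0.72 on the log2 scale to each side for harmine against control, 0.42 to 0.72 for Dyrk1a shRNA against control and 0.40 to 0.63 between the treatments. They were narrowest for Tnfrsf1b and widest for Tnfsf11. These intervals are unadjusted and are not limits of detection under the adjusted threshold. Larger differences could also fail it, as Tnfrsf8 did between the treatments at 1.11.

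The known partners of these receptors and ligands were measured beside them. Tnfsf9, the ligand of 4-1BB, stood at 50.3 ± 6.16 CPM per kb (SD, n = 6), Tnfsf4, the ligand of OX40, at 7.55 ± 1.85, and Tnfsf18, the ligand of GITR, had 0 counts in all 6 libraries, where up to 3 counts per library would be allowed by a count of 0. Lta and Tnf, ligands of TNFR1 and TNFR2, stood at 120 ± 27.7 and 21.6 ± 7.34 CPM per kb, and Fasl, the ligand of Fas, at 3.17 ± 1.83. Of the receptors for RANKL, the signaling receptor Tnfrsf11a had 0 to 7 counts and was not tested, and the soluble decoy Tnfrsf11b stood at 3.15 ± 0.95 CPM per kb. Per length, the receptor was thus the more abundant side of the OX40, GITR, 4-1BB and Fas pairs.

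Tnf was measured at 57.7 and 30.4 CPM in control, 27.4 and 29.3 with harmine and 26.8 and 40.4 with Dyrk1a shRNA, and both harmine libraries lay below both controls. Its log2 fold change with harmine was −0.67 (SE 0.29, unadjusted p = 0.0346, adjusted p = 0.928 by edgeR). Without control replicate 2 it was −1.02, in a fit that kept only the higher control library. Fasl was measured at 12.6 and 6.75 CPM in control, 3.87 and 2.90 with harmine and 6.90 and 3.83 with Dyrk1a shRNA, from 8 to 20 counts per library. Its log2 fold change with harmine was −1.55 (SE 0.50, unadjusted p = 0.00647, adjusted p = 0.837 by edgeR) with no overlap. Lta was measured at 241 and 144 CPM in control, 164 and 151 with harmine and 136 and 157 with Dyrk1a shRNA. All groups overlapped, and control replicate 2 lay between the Dyrk1a shRNA values. The log2 fold change of Lta was −0.30 with harmine and −0.40 with Dyrk1a shRNA (SE 0.22, adjusted p = 0.686 by edgeR). Without control replicate 2 the latter was −0.71, in a fit that kept only the higher control library. Tnfsf4, Tnfsf9 and Tnfrsf11b were within 0.47 of 0 on the log2 scale in every comparison and passed in none.

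Genes of the rest of the pathway were counted from 3 lists. Of 21 other receptors 13 could be tested, of 16 other ligands 9, and of 21 adaptors and signaling proteins all 21. By edgeR's adjusted test 0 of these passed in any comparison, and 0 did by DESeq2. At an unadjusted p under 0.05, 2 ligands were lower with harmine (Fasl and Tnf) and 2 adaptors were higher with Dyrk1a shRNA against control. With Dyrk1a shRNA against harmine 1 ligand was higher, while DESeq2 counted 1 gene in each of these. Over all tested genes edgeR counted 5.3%, 7.69% and 5.73% in the same 3 comparisons. DESeq2 counted 243, 385 and 205 of 10607 genes. The 2 adaptors were Rnf31 (log2 fold change 0.60, SE 0.20, unadjusted p = 0.00726, adjusted p = 0.612) and Rbck1 (0.42, SE 0.18, unadjusted p = 0.0319, adjusted p = 0.616), subunits of the ligase that builds linear ubiquitin chains at TNF receptors. With harmine against control, Rnf31 was at 0.37 (unadjusted p = 0.0769 by edgeR) and Rbck1 at 0.30 (unadjusted p = 0.117). Both were again higher without overlap, where 32.3% of all tested genes did not overlap. Sharpin, the third subunit of that ligase, was at −0.31 (adjusted p = 0.741) with Dyrk1a shRNA against control.

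The ligand was Tnfsf14, which encodes LIGHT. It was measured at 49.0 and 52.3 CPM in control, 45.0 and 32.2 with harmine and 71.7 and 62.8 with Dyrk1a shRNA. Its groups stood in the same order as those of Tnfrsf8 and Tnfrsf1b without overlap, a pattern not counted over all genes. Its log2 fold change of Dyrk1a shRNA against harmine was 0.80 (SE 0.21, unadjusted p = 0.00132, adjusted p = 0.573 by edgeR), the 21st smallest p of all genes. The other genes with the smallest p in their list were nearer to 0 or no better separated. Among receptors, Tnfrsf25 (death receptor 3) was at 0.49 with Dyrk1a shRNA against control (unadjusted p = 0.0604), Tnfrsf10b at −0.33 in that comparison, and Cd27, a costimulatory receptor of naive T cells, at −0.38 between the treatments (unadjusted p = 0.062). With harmine against control, Tnfrsf22 was at 0.36 and Tnfrsf25 at 0.25, and between the treatments Tnfrsf11b was at 0.47, none with an unadjusted p under 0.05. Whether reads of Tnfrsf22 were shared with related genes such as Tnfrsf23 and Tnfrsf26 was not checked, so its value is uncertain. Among adaptors, Fadd was at −0.64 (unadjusted p = 0.0571) and Tradd at 0.48 (unadjusted p = 0.0733) between the treatments, and Sharpin at −0.36 with harmine. Among ligands, Ltb was at 0.41 between the treatments (unadjusted p = 0.09), and Fasl at −0.92 with Dyrk1a shRNA against control (unadjusted p = 0.0721).

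The median log2 fold change of the other receptors was 0.18 with harmine, 0.06 with Dyrk1a shRNA and −0.09 between the treatments. For the other ligands it was −0.30, −0.20 and 0.03, and for the adaptors 0.03, 0.13 and 0.11. Over all tested genes the median was −0.02 with harmine, −0.01 with Dyrk1a shRNA and −0.00107 between the treatments.

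**Figure D5:**
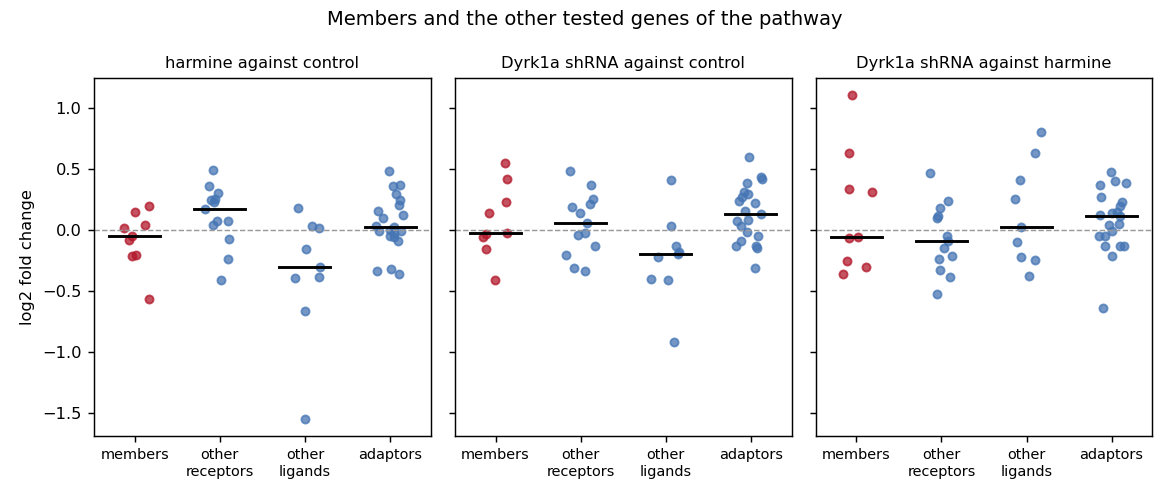
Log2 fold change of the 9 genes (red) and of the other tested receptors, ligands and adaptors of the pathway (blue), with 1 point per gene and a black bar at the median, in the 3 comparisons. Points are spread sideways only to separate them. Tnfrsf8 at 1.11 is the highest point between the treatments and Fasl at −1.55 is the lowest with harmine.

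The nearest profile to the steadiest gene, Tnfrsf9, was that of Mettl21a, a methyltransferase, at 0.03. Apart from Tnfrsf4 and Tnfrsf18, the nearest gene of this group ranked between 42nd (Tnfrsf1b for Tnfrsf8) and 1701st (Tnfrsf4 for Tnfsf8) among all tested genes. Of the 9, 6 lie on chromosome 4, and Tnfsf8 lies there far from the others at 63831308 to 63861347. Tnfrsf1a is on chromosome 6 at 125349362 to 125362484 and Tnfsf11 on chromosome 14 at 78277445 to 78308043.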

How the data were processed

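RNAseq was performed on 6 libraries, 2 for each of 3 groups, grouped by the treatment in the sample labels. The authors prepared libraries with a tagmentation kit that does not mark strand, aligned reads to mm10 and deposited expected counts per gene, estimated by RSEM and not normalized (TopHat2 2.0.13, RSEM and DESeq are listed in the processing notes of the submitters). Of the deposited expected counts, 9.1% to 13.7% per library were not whole, and all were rounded. Low genes were removed by filterByExpr (minimum count 10). A robust quasi-likelihood model of all 6 libraries was fitted in edgeR 4.0.16 (R 4.3.3) after TMM scaling, with two-sided tests, p-values adjusted by Benjamini-Hochberg over 10607 genes and a threshold of 0.05. CPM values are TMM-scaled. Profiles used log2 CPM with a prior count of 2. Lengths and positions came from GENCODE's annotation of GRCm38, the build of mm10, in which 21777 of 23420 symbols (93%) were found. Alternatives were DESeq2 1.42.0, other scaling and filters, a replicate block, length and GC correction and leaving out each library. The 2 libraries of each group differed by more than sampling noise, most of all in control. Chi-square per degree of freedom was 10.5 in control, 4.03 with harmine and 3.69 with Dyrk1a shRNA. The fit used a spread shared by the 3 groups.

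The members, gene lists and rules were chosen with earlier results of these data known. All 9 members, Dyrk1a, 8 partner genes, the 2 genes of smallest p per list and comparison, and the gene of nearest profile to each member are named, except 1 nearest gene that is not reported here. Promoters, motifs, the count shares of Tnfrsf4 with Tnfrsf18 and of Tnfrsf8 with Tnfrsf1b or Tnfsf8, and the pairs of neighbors were chosen after values were seen.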

Additional observations from a re-analysis of the deposited data

How the results depend on the processing

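No member passed in any comparison under the alternatives tried, with 1 exception, Tnfrsf8 in Dyrk1a shRNA against harmine without a filter on low counts (1 member, log2 fold change 1.11, adjusted p = 0.00634), where 22 genes passed in place of 1 among 15589 genes. The other pathway genes called ranged from 0 to 1 when single libraries were left out for harmine against control and likewise for Dyrk1a shRNA against control, the 1 being Tnf or Lta without control replicate 2. That setting raised the calls over all genes to 291 and 439, and with no filter they were 20 and 28. The signs of Tnfrsf8 and Tnfrsf1b held in all 15 settings. Of 134 values for each comparison, the sign turned in 10 for harmine, 15 for Dyrk1a shRNA and 9 between the treatments; the cause was not tested. Tnfsf11 had too few counts for a minimum count of 50.

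Replicate numbers are shared between groups, but the labels do not say what a number marks. Deviations of same-numbered libraries correlated at 0.12, 0.02 and 0.24 over genes, and a pairing was not established. With the replicate block no member was called, and for Tnfrsf8 the log2 fold change between the treatments was 1.12 with an adjusted p of 0.34. The calls over all genes went from 1, 2 and 1 to 0, 2 and 0, and 721, 1015 and 863 genes had an unadjusted p under 0.05. With length and GC trends removed, log2 fold changes against control turned to 0.033 for Tnfrsf9, 0.034 for Tnfrsf18 and 0.22 for Fas with Dyrk1a shRNA (0.029, 0.034 and 0.25 together with the replicate block), and between the treatments to 0.017 for Tnfrsf9 and 0.14 for Fas (0.015 and 0.14 with the block). The median of the members was then −0.10, 0.11 and 0.14 in the 3 comparisons.

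Leaving out each library in turn gave ranges that crossed 0. For harmine against control, the log2 fold change ran from −0.12 to 0.48 for Tnfrsf4, −0.044 to 0.49 for Tnfrsf18, −0.066 to 0.10 for Tnfrsf9, −0.61 to 0.29 for Tnfrsf1a, −0.31 to 0.33 for Fas and −0.34 to 0.24 for Tnfsf8. For Dyrk1a shRNA against control it ran from −0.42 to 0.18 for Tnfrsf4, −0.29 to 0.24 for Tnfrsf18, −0.19 to 0.11 for Tnfrsf9, −0.37 to 0.27 for Fas and −0.11 to 0.36 for Tnfsf11. For Dyrk1a shRNA against harmine it ran from −0.22 to 0.090 for Tnfrsf9, −0.058 to 0.84 for Tnfrsf1a and −0.41 to 0.28 for Fas. A lone library left in a group was assumed to vary like the other groups.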
